A study of Mus musculus with 7 samples.

Results

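The RNAs described here are the mitochondrial ribosomal RNAs of E14 mouse embryonic stem cells (ESCs), mt-Rnr1 and mt-Rnr2, followed through chemical probing. They were chosen by their gene symbol in the count tables, and are 2 of the 13218 genes with a transcript there. CIRS-seq counts the positions at which reverse transcription (RT) stops. It was applied to proteinase K-treated lysate of E14 cells, an established line of mouse ESCs, in 2 replicates each of dimethyl sulfate (DMS), of the carbodiimide CMCT and of an untreated control (NT). DMS libraries pooled aliquots treated at 50, 100, 150 and 200 mM, CMCT libraries aliquots at 10, 20, 25 and 50 mM, and NT libraries aliquots carried along at 0 mM. All 6 libraries were made from RNA depleted of ribosomal RNA with Ribo-Zero Gold and primed with random hexamers. They were accompanied by 1 RNA-seq library of untreated cells, also made from RNA depleted with Ribo-Zero Gold. All libraries come from 1 cell line, so the replicates do not sample different animals, and what is counted for these RNAs is what remained after depletion.

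Mitochondria translate their own few messages on ribosomes whose RNA is encoded in the mitochondrial genome. mt-Rnr1 is the RNA of the small ribosomal subunit and mt-Rnr2 that of the large subunit. Both are cut, together with the tRNAs that flank them, from a precursor transcribed from the heavy strand. DMS methylates adenosines and cytosines that are not base-paired, and CMCT modifies unpaired uridines and, less readily, guanosines. The modified base then stops the reverse transcriptase.

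mt-Rnr1 (ENSMUSG00000064337) covers chrM:70-1024 of mm9 on the plus strand and is 955 nt long, and mt-Rnr2 (ENSMUSG00000064339) covers chrM:1094-2675 on the same strand and is 1582 nt long. Each is a single exon without introns. mt-Tv lies between them, mt-Tf before mt-Rnr1 and mt-Tl1 after mt-Rnr2. No stop was counted in the last 25 nt of either RNA, which leaves 930 and 1557 measured positions. The unmeasured end of mt-Rnr1 contains the adenosines that Tfb1m dimethylates, so the data hold nothing on that site. Positions below are counted from 1 at the 5′ end. Rises and falls are ranked, here and below, among positions called at an adjusted p under 0.05. The sequences that follow are the ends of both RNAs and the surroundings of the positions on which the results turn, with the position itself as a capital and T standing for U.
mt-Rnr1 5′ end, chrM:70-99: aaaggtttggtcctggccttataattaatt
mt-Rnr1 unmeasured 3′ end, chrM:1000-1024: tactggaaagtgtgcttggaataat
mt-Rnr1 A2, stopped in DMS, chrM:70-81: aAaggtttggtc
mt-Rnr1 U206, strongest NT stop, chrM:265-285: aaagtttgacTaagttatacc
mt-Rnr1 A812, no NT stop and largest fitted DMS rise, chrM:871-891: agcttaattgAattgagcaat
mt-Rnr1 A653, largest fitted CMCT rise, chrM:712-732: tattaaagtaAgcaaaagaat
mt-Rnr2 5′ end, chrM:1094-1123: actaatcctagccctagccctacacaaata
mt-Rnr2 unmeasured 3′ end, chrM:2651-2675: tacaccctctaacctagagaaggtt
mt-Rnr2 U600, strongest NT stop, chrM:1683-1703: cttcctaaacTtaaaattggg
mt-Rnr2 U623, lower in DMS, chrM:1706-1726: aatctataacTttatagatgc
mt-Rnr2 A137, no NT stop and largest fitted DMS rise, chrM:1220-1240: ggaaagatgaAagactaatta
mt-Rnr2 U209, no NT stop and largest fitted CMCT rise, chrM:1292-1312: actagaaaacTtctaactaaa

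Summed over genes, with each genomic position once per gene, the libraries held between 140186204 and 247369982 RT stops. These sums exceed the number of reads the paper reports for each treatment, so they do not count distinct reads. In RNA-seq all 10 ESC markers were found, with 146 (Utf1) to 8156 (Zfp42) alignments each, and the 5 fibroblast markers had 1 to 13. The 5 primitive endoderm markers had 35 to 874, and the 4 markers of early lineages 0 to 209. A property of the deposited counts touches every test below. Among all tested positions with at least 1000 RT stops over both replicates of a treatment, 20.5% to 22.9% had replicate counts that differed by at most 1, although counting alone would give that difference an SD of 31.6 at that sum. Between libraries of different treatments this share was 0.0186% to 0.207%. Few positions of the mitochondrial rRNAs reached that depth. The share there was 0% of 1 (NT), 69 (DMS) and 43 (CMCT) positions of mt-Rnr1, and 0% of 33, 3.23% of 186 and 2.70% of 74 positions of mt-Rnr2. With at least 50 stops over both replicates, 79 of 760 tested positions of mt-Rnr1 and 145 of 1299 of mt-Rnr2 had such a pair in at least 1 treatment. In mt-Rnr2, G632 had 166 and 166 stops in NT, 846 and 846 in DMS, and 1160 and 1160 in CMCT. Where they exceed what counting gives, such pairs understate the spread between replicates, so results are also given without them. At sums near 50 counting alone gives some such pairs. Leaving out positions because their replicates agree also raises the fitted spread. A call lost in that setting can therefore come from the selection itself.

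The reads of these RNAs are not all distinguishable from nuclear copies. Of the measured positions of mt-Rnr1, 921 (99.0%) were followed by 25 bases found once in mm9, and these held 97.1% to 99.4% of its RT stops. Of those of mt-Rnr2, only 1287 (82.7%) were, with 50.5% to 78.7% of the stops. Most of its other positions matched chromosome 10, where 185 positions between 426 and 763 had an exact copy. Another 61 positions matched chromosome 6. How reads with several places were counted is not given in the sources used here, so stops at such positions cannot be told apart from those of a nuclear copy.

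RT stops in mt-Rnr1 were more frequent in both treatments than in NT. It held 12612 and 29445 RT stops in the NT libraries, 111598 and 213639 in DMS, and 103807 and 95453 in CMCT. After TMM scaling (which scales libraries by a trimmed mean of log ratios over genes) these were 78.9 and 245 CPM (counts scaled to a common library size) in NT, 574 and 1140 in DMS, and 410 and 628 in CMCT. Every treated library lay above both NT libraries, and the NT replicates lay further apart on the log scale than those of either reagent. The log2 fold change was 2.40 (SE 0.58, n = 2 against 2) for DMS, with an adjusted p of 0.0091 in edgeR's quasi-likelihood test across 13216 genes. For CMCT it was 1.68 (SE 0.57), with an adjusted p of 0.0436. Of all genes tested, 26.4% were called in DMS and 29.0% in CMCT. Without NT replicate 1 the log2 fold change was 1.81 in DMS and 1.08 in CMCT. In CMCT it was 2.72 without NT replicate 2 and 1.34 without CMCT replicate 2. Such fits leave 1 library in a group, so they do not show whether a call would hold. The CMCT call was lost in edgeR with DESeq2's size factors (1.53, adjusted p = 0.136) and with scaling to the mitochondrial genes (1.48, adjusted p = 0.052). It was also lost without near-equal positions (1.60, adjusted p = 0.0502). DESeq2 itself kept the call (1.53, adjusted p = 0.0433), as did edgeR with library totals (2.14, adjusted p = 0.0037).

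mt-Rnr2 held more RT stops than mt-Rnr1 in every library, and rose in DMS. It had 72347 and 84753 stops in NT, 306218 and 389086 in DMS, and 215639 and 161681 in CMCT. Scaled, these were 453 and 705 CPM in NT, 1575 and 2077 in DMS, and 852 and 1063 in CMCT, so that the treated libraries again did not overlap with NT. The log2 fold change was 1.66 (SE 0.46, n = 2 against 2; adjusted p = 0.0178) in DMS and 0.73 (SE 0.45; adjusted p = 0.256) in CMCT, where the difference did not pass the threshold. At positions found once in mm9 the DMS value was 1.80 (adjusted p = 0.0226). The DMS value was 1.37 without NT replicate 1, 2.01 without NT replicate 2, 1.83 without DMS replicate 1 and 1.33 without DMS replicate 2. Each of these fits leaves 1 library in a group, so whether the call would hold without a library cannot be read from them. Scaled to the total of the mitochondrial genes the DMS value was 0.96 (adjusted p = 0.216), and scaled to the library totals the CMCT value was 1.14 (adjusted p = 0.0306). DESeq2 gave 1.64 (adjusted p = 8.2e-05) in DMS and 0.60 (adjusted p = 0.205) in CMCT. Whether more stops reflect modification, depletion or the amount of RNA was not tested.

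**Figure D1:**
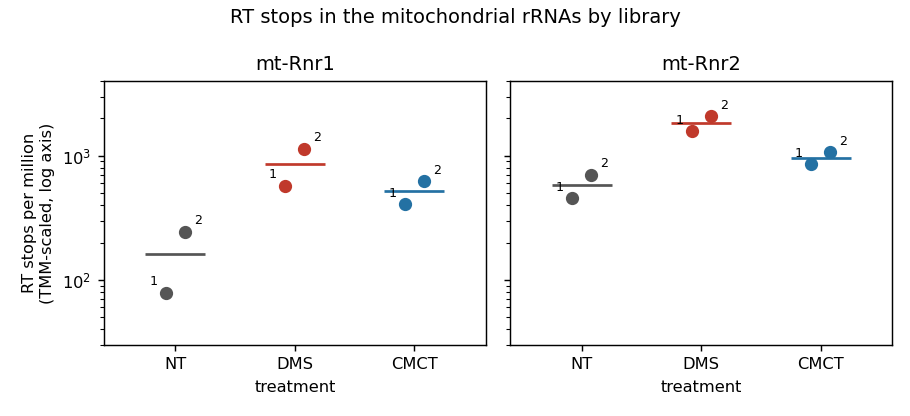
RT stops in CPM (TMM-scaled, log axis) in mt-Rnr1 and mt-Rnr2 for NT, DMS and CMCT; points are libraries, numbered by replicate, and lines are means of 2. All 4 treated libraries lie above both NT libraries for each RNA, and replicate 2 lies above replicate 1 throughout.

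Per measured base, mt-Rnr2 carried 3.43 and 1.72 times as many RT stops as mt-Rnr1 in the NT libraries, 1.64 and 1.09 times in DMS, and 1.24 and 1.01 times in CMCT. The ratio was highest in NT replicate 1, while NT replicate 2 and DMS replicate 1 lay close together. In RNA-seq, by contrast, mt-Rnr2 had 3098621 alignments and mt-Rnr1 233693, or 61482 and 7681 RPKM (scaled per kb and by library size). This was an 8.00-fold difference per kb in the 1 library, which was also depleted of ribosomal RNA. mt-Rnr2 took 9.73% of all 31857551 alignments and 86.6% of those of the mitochondrial genome. The flanking tRNAs were nearly absent from RNA-seq, with 87 alignments in mt-Tf, 67 in mt-Tv and 122 in mt-Tl1.

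None of the flanking tRNAs rose in DMS. mt-Tv, the valine tRNA cut out between them, had 344 and 384 CPM in NT, 156 and 168 in DMS, and 365 and 480 in CMCT. It was lower in DMS, by a log2 fold change of -1.17 (SE 0.39, adjusted p = 0.0418), a call that was lost with scaling to the library totals (-0.62, adjusted p = 0.188). mt-Tf (log2 fold change -0.93 in DMS, adjusted p = 0.0536) and mt-Tl1 (-0.84, adjusted p = 0.0878) did not pass the threshold there, while mt-Tf rose in CMCT (1.10, adjusted p = 0.0256), a call lost with DESeq2's size factors (0.97, adjusted p = 0.0891) and with scaling to the mitochondrial genes (0.91, adjusted p = 0.115). Of 22 mitochondrial tRNAs, 1 was higher and 10 lower in DMS, and 2 were higher and 1 lower in CMCT, beside 26.4% (DMS) and 29.0% (CMCT) of all genes called in either direction. These shares of all genes hold for TMM only, and none is given for the other settings. With library totals 3 were higher and 5 lower in DMS, and 8 and 1 in CMCT. With scaling to the mitochondrial genes 1 was higher and 14 lower in DMS, and 0 and 2 in CMCT. With DESeq2's size factors edgeR called 1 higher and 8 lower in DMS, and 0 and 0 in CMCT, where DESeq2 itself called 3 and 8 of the 22 had an unadjusted p under 0.05 in edgeR with TMM. The median log2 fold changes of the tRNAs were -1.03 and 0.38, beside 0.01 and 0.11 for all genes. Scaling to the library totals moved the DMS median of all genes to 0.54 and scaling to the mitochondrial genes moved it to -0.62, and the tRNA median stayed below that of all genes in both, at -0.47 and -1.69.

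Among the mitochondrial mRNAs, 3 of 13 were higher in DMS and none was lower, a share close to the 26.4% of all genes called. These were mt-Nd2 (log2 fold change 1.12, adjusted p = 0.0251) and mt-Nd3 (0.91, adjusted p = 0.0202), subunits of complex I, and mt-Atp8 (1.27, adjusted p = 0.00864), a subunit of ATP synthase. The median of the 13 was 0.81. DESeq2 called 8 of them, and edgeR called 10 with scaling to the library totals and 0 with scaling to the mitochondrial genes. The 26.4% holds for TMM only, and no share of all genes is given for these settings. With library totals the median of the 13 was 1.34, beside 0.54 for all genes, and with the mitochondrial genes 0.13, beside -0.62. In CMCT edgeR called 0 of the 13, 0 had an unadjusted p under 0.05, DESeq2 called 1, and the median was 0.15.

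Of the 77 genes with a mitoribosomal protein symbol, 3 of them pseudogenes, 2 were higher and 6 lower in DMS, and 4 were lower in CMCT, beside 26.4% and 29.0% of all genes called. The pseudogene Mrpl23-ps1 was 1 of the lower genes in each. The medians of the 77 genes, -0.08 and 0.07, lay close to those of all genes. Mrpl15, of the large subunit, fell by 1.95 in DMS and by 1.93 in CMCT on the log2 scale (adjusted p = 0.00189 and 0.00196), and remained lower under each scaling tried. Mrpl52, also of the large subunit, rose by 0.79 in DMS (adjusted p = 0.0357) but stood at 0.14 (adjusted p = 0.825) with scaling to the mitochondrial genes. The split of the DMS calls turned with the scaling, to 10 higher and 2 lower with library totals and to 0 higher and 15 lower with the mitochondrial genes. In CMCT it was 3 and 3 with library totals, and 0 and 4 with the mitochondrial genes. The DMS medians of the 77 genes were then 0.43 and -0.72, beside 0.54 and -0.62 for all genes. DESeq2 called 16 in DMS and 12 in CMCT. No share of all genes is given for these settings.

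Few genes for factors that act on these RNAs were among those tested. Of the rRNA modification enzymes listed only Nsun4, which methylates a cytosine of mt-Rnr1, was, at a log2 fold change of 0.79 in DMS (adjusted p = 0.0946) and 0.27 in CMCT (adjusted p = 0.575). In DMS it passed with library totals (1.35, adjusted p = 0.00588) and in DESeq2. With scaling to the mitochondrial genes it stood at 0.13 (adjusted p = 0.85). Among 7 assembly and stability factors, 1 was lower in DMS and 3 were lower in CMCT, beside 26.4% and 29.0% of all genes called. Mettl17 was lower in both (-0.91, adjusted p = 0.0256, and -0.78, adjusted p = 0.0470), but its calls were lost with scaling to the library totals (-0.35 and -0.38), and the CMCT one also with the mitochondrial genes (-0.96, adjusted p = 0.0948). Mterfd2 (-0.98, adjusted p = 0.0422) and the RNA helicase Dhx30 (-2.33, adjusted p = 0.0146) were lower in CMCT, and both calls were lost with DESeq2's size factors, at log2 fold changes of -1.09 and -2.45 (adjusted p = 0.0732 and 0.0558). That of Mterfd2 was also lost with library totals (-0.59, adjusted p = 0.168). Tfam, the mitochondrial transcription factor and nucleoid protein, stood at -0.06 and 0.25 and passed in neither comparison.

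Over the 6 libraries, the log2 levels of mt-Rnr1 were most like those of B230398E01Rik (Pearson's r = 0.981), Gm15745 (0.976) and AC142474.1 (0.972). mt-Rnr2 was most like AC158626.1 (r = 0.995), Gm14585 (0.989) and Gm11157 (0.989). The pair correlated with each other at r = 0.943, and 39 other genes were closer to mt-Rnr1 than mt-Rnr2 was, and 627 were closer to mt-Rnr2 than mt-Rnr1 was. These values are descriptions over 6 points in 3 treatments.

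In untreated RNA, stops gathered in a few stretches. The 10 strongest positions held 16.2% and 22.5% of the stops of mt-Rnr1 in NT and 29.9% and 21.6% of those of mt-Rnr2. In mt-Rnr1 the strongest was U206, with 311 and 1041 stops (2.47% and 3.54% of its total in that library), followed by U91, U219, U99 and U479. U91 (105 and 814 stops), U99 (102 and 754) and U479 (27 and 913) stood out mainly in NT replicate 2, whereas U219 had 1.83% and 1.65% of the stops. All 5 are uridines.

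In mt-Rnr2 the 5 strongest positions by the mean share of both NT libraries lay between 568 and 663, although U1232 (3263 stops, 3.85%) was the strongest of NT replicate 2. The 5 were U600 (3576 and 3214 stops, 4.94% and 3.79%), C663 (2870 and 1522), U577 (2411 and 1955), U623 (2078 and 2032) and U568 (1635 and 1541). Positions 501 to 700 together held 69.6% and 35.5% of the stops in NT, 39.8% and 24.3% in DMS, and 56.5% and 36.6% in CMCT. The 25 bases after U600, U623 and C663 have another copy in mm9, while those after U568 and U577 do not. RNA-seq alignments did not pile up there: windows of 100 nt from 501 to 700 held 6.64% and 5.65% of them, against 37.4% and 32.1% of the stops in NT replicate 1 and 23.7% and 11.8% in NT replicate 2.

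**Figure D2:**
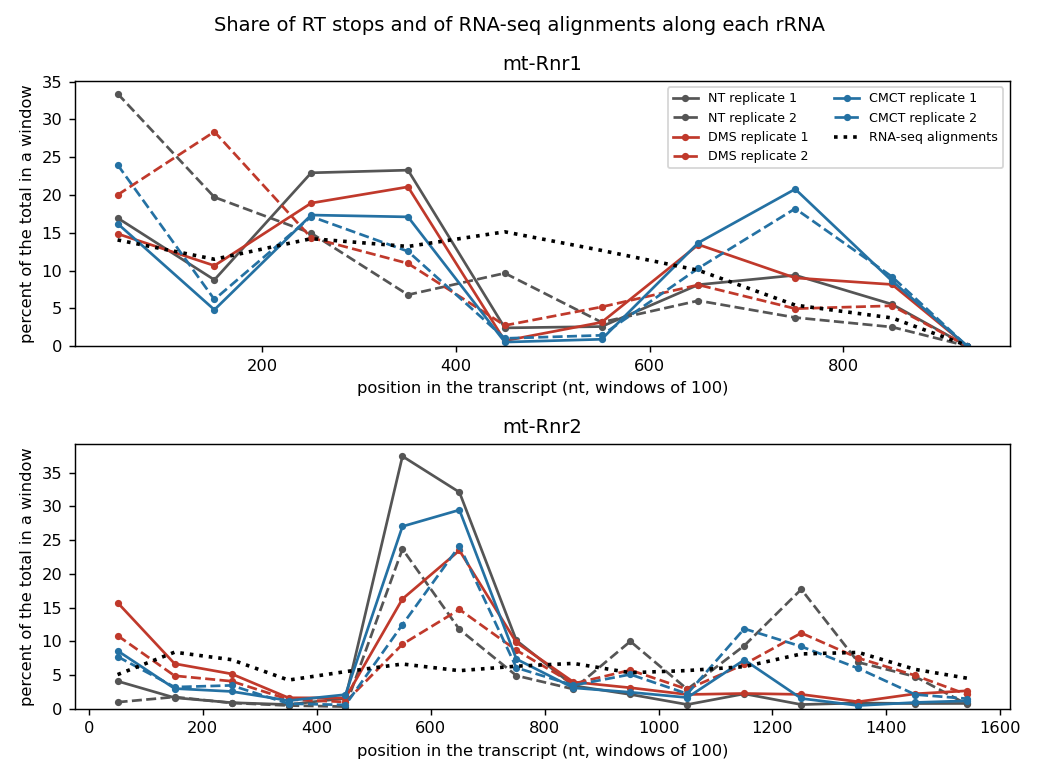
Percent of the RT stops of each library, and of the RNA-seq alignments (dotted), in windows of 100 nt along mt-Rnr1 and mt-Rnr2; solid lines are replicate 1 and dashed lines replicate 2. In mt-Rnr2 the windows from 501 to 700 held 9.57% to 37.4% of the stops each, above the RNA-seq share, and replicate 2 has a further peak at 1201 to 1300 in NT and DMS and at 1101 to 1200 (11.9%) in CMCT.

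Replicates differed along the molecules, in some windows the same way in the 3 treatments. In others they did not: from 401 to 425 of mt-Rnr1 NT and DMS had log2 ratios of replicate 2 to replicate 1 of 1.84 and 2.77, while that of CMCT was -1.48. Positions 1201 to 1300 of mt-Rnr2 held 0.63% of the stops in NT replicate 1 and 17.7% in NT replicate 2. The same window held 2.13% and 11.2% in DMS, and 1.53% and 9.24% in CMCT. From 1276 to 1300 the NT replicates had 21 and 1929 stops. In mt-Rnr1, positions 401 to 500 held 2.41% and 9.65% in NT, 0.71% and 2.73% in DMS, and 0.53% and 1.02% in CMCT. In both of these windows the second replicate of each treatment held the larger share. In mt-Rnr2 the opposite held from 501 to 700, as given above, and from 1 to 100, with 4.10% and 0.98% in NT, 15.7% and 10.9% in DMS, and 8.60% and 7.74% in CMCT.

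Profiles of replicates correlated less in mt-Rnr2 than in mt-Rnr1. Pearson's r of log2 counts over positions was 0.71 between NT replicates, 0.79 between DMS replicates and 0.96 between CMCT replicates in mt-Rnr1, and 0.56, 0.73 and 0.87 in mt-Rnr2. Between NT replicate 1 and CMCT replicate 1 of mt-Rnr2 it was 0.83, above the 0.56 between the NT replicates themselves. These coefficients are across 930 and 1557 positions, which are not independent and share their library.

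**Figure D3:**
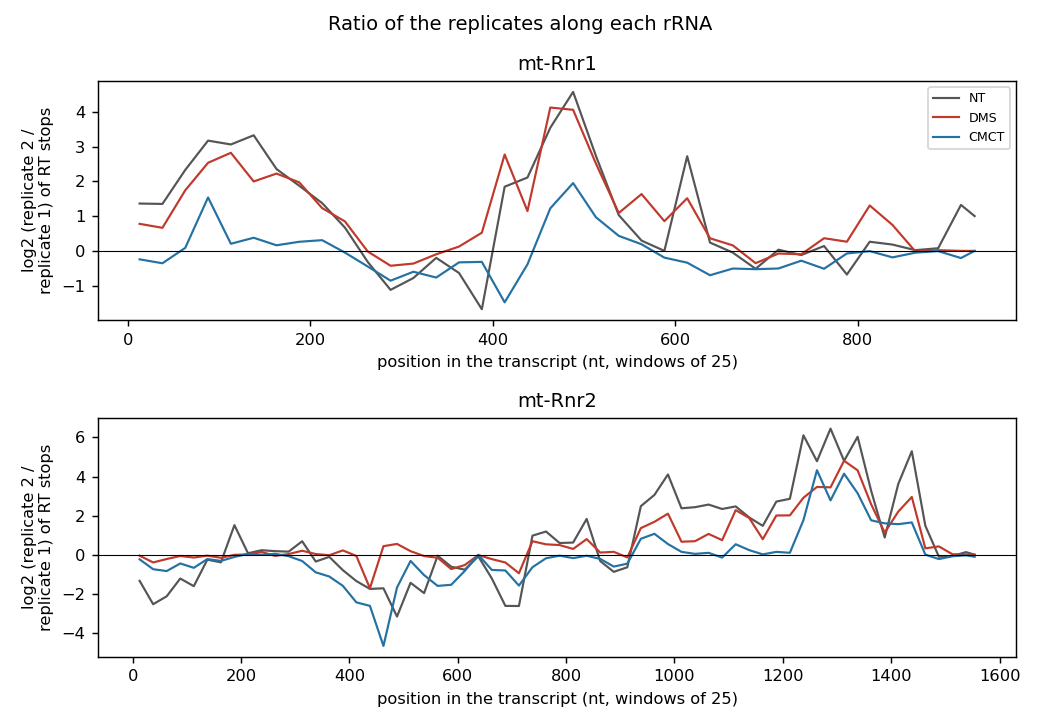
Log2 ratio of replicate 2 to replicate 1 of RT stops (pseudocount 1) in windows of 25 nt along mt-Rnr1 and mt-Rnr2, for NT, DMS and CMCT. The 3 lines rise together between 1226 and 1350 of mt-Rnr2, where the NT ratio reaches 6.45, and lie near 0 from 1501 of mt-Rnr2 to its end.

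The bases at the stops changed with the reagent. In mt-Rnr1 adenosines took 18.1% and 21.1% of the stops in NT, 36.5% and 58.4% in DMS, and 18.8% and 18.6% in CMCT, where adenosines made up 38.0% of the measured bases. In mt-Rnr2 adenosines took 13.2% and 23.5% in NT, 34.8% and 46.5% in DMS, and 15.9% and 15.9% in CMCT. The DMS libraries lay above all others for A in both RNAs. DMS replicate 2 was further from NT than DMS replicate 1 in each.

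Uridines were already the main stop in NT, with 48.5% and 49.7% in mt-Rnr1 and 47.4% and 45.9% in mt-Rnr2, although they made up 26.2% and 26.4% of the bases. They rose to 54.0% and 59.2% in CMCT in mt-Rnr1 and to 52.4% and 55.8% in mt-Rnr2, without overlap with NT. In DMS they were at 34.1% and 20.7% in mt-Rnr1 and at 32.3% and 24.7% in mt-Rnr2. The share of cytosines was not higher in DMS: they took 21.1% and 16.3% of the stops of mt-Rnr1, below 23.2% and 21.9% in NT, and 27.1% and 23.3% of those of mt-Rnr2, against 35.1% and 25.3%. Guanosines stayed at 4.3% to 10.3% in every library. With 2 libraries against 2, an exact two-sided permutation test cannot give a p below 0.333, and no test was run on these shares.

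**Figure D4:**
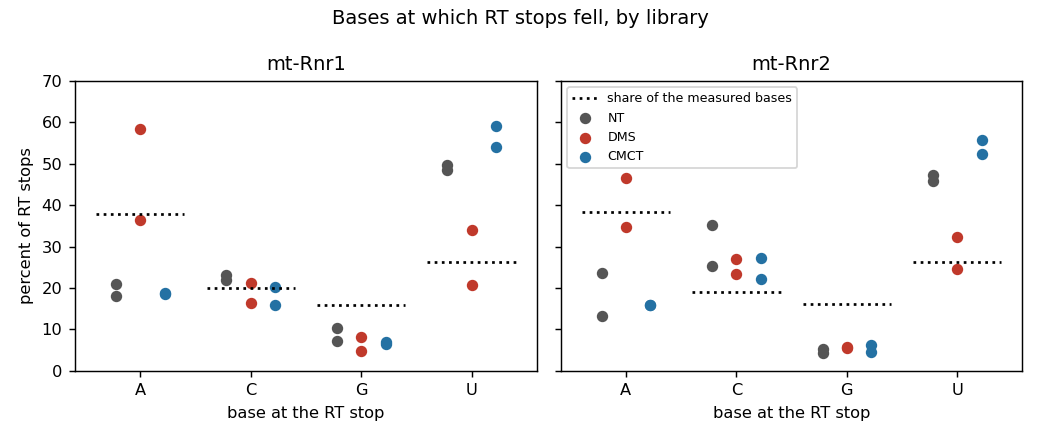
Percent of RT stops at A, C, G and U in mt-Rnr1 and mt-Rnr2; each point is a library and the dotted line is the share of that base among measured positions. Adenosine is higher in both DMS libraries (34.8% to 58.4%) and uridine higher in both CMCT libraries (52.4% to 59.2%) than in NT.

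Taking positions one by one, adenosines again stood highest in DMS. The mean log2 ratio of DMS to NT counts (pseudocount 1, each RNA scaled to its mean) at positions with at least 50 stops was 1.57 over 307 adenosines of mt-Rnr1, 0.01 over cytosines, -0.25 over guanosines and -0.63 over uridines. In mt-Rnr2 it was 1.93 over 524 adenosines, 0.59 over cytosines, 0.59 over guanosines and 0.01 over uridines. The values of mt-Rnr2 moved with single libraries: without DMS replicate 2 they were 1.11, 0.04, 0.10 and -0.40, and without NT replicate 2 they were 2.64, 1.19, 1.32 and 0.70. In mt-Rnr1 the adenosines stood at 0.80 without DMS replicate 2. With 1 library left out its cytosines lay between -0.20 and 0.22, its guanosines between -0.49 and -0.01 and its uridines between -0.89 and -0.33. The SD between DMS replicates was 0.61 for the adenosines of mt-Rnr1 and 0.71 for those of mt-Rnr2. With CMCT the values were -0.35 for uridines and -0.68 for adenosines in mt-Rnr1, and 0.28 and -0.12 in mt-Rnr2, where the SD of 0.37 between replicates for uridines spans most of that difference. Without NT replicate 2 the uridines of mt-Rnr2 stood at 0.96 and its adenosines at 0.59, without CMCT replicate 2 its uridines at -0.18, without CMCT replicate 1 its adenosines at 0.03, and without NT replicate 1 the uridines of mt-Rnr1 at -0.05. These positions were chosen by stops summed over all libraries, so some have few or no NT stops. Ratios at such positions rest on the pseudocount. With a pseudocount of 5 the DMS values in mt-Rnr1 were 1.10 for adenosines and -0.20 for cytosines. In mt-Rnr2 they were 1.505 and 0.36. Adenosines remained highest in both RNAs.

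Each position was then tested for a change in its share of the RNA's stops, among 698485 positions of all transcripts. In DMS 73 of 760 tested positions of mt-Rnr1 (9.61%) were higher and 28 (3.68%) lower than in NT, against 13.2% and 8.36% of all positions tested. Of the 73, 63 were adenosines, or 20.5% of the adenosines tested, while 2.03% of cytosines, 2.06% of guanosines and 2.40% of uridines were higher. The minimum number of stops was set over all libraries together, so the higher calls include positions with few or no NT stops. How many of the 73 these are is not given, and the shares by base and window include them. The windows with most of them were 601 to 700 (20) and 301 to 400 (14), and the others held at most 9 each. Without near-equal positions 7.05% of mt-Rnr1 positions were higher, against 7.83% of all positions. The count there was 48 of 681. Leaving out 1 library gave fewer higher positions, here and among all positions. Such fits leave 1 library in a group, so they do not show whether calls would hold.

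A2, next to the 5′ end of mt-Rnr1, had 2 and 1 stops in NT but 3032 and 6314 in DMS, or 2.72% and 2.96% of the stops of mt-Rnr1. In CMCT it had 91 and 67. The share over both DMS libraries was 403 times that in NT (95% exact counting interval 138 to 1954), and it was the strongest position of DMS replicate 1. Other large fitted rises were at positions without any NT stop, which passed the minimum of 50 stops through the treated libraries alone. Their rank rests on fitted values over 0 counts, and bounds are given for them without a p. A812 had 122 and 312 stops in DMS and was at least 18.7-fold higher, taking 3 stops over both NT libraries as the floor. A824 (38 and 169 stops, at least 8.92-fold), A638 (41 and 80, at least 5.22-fold) and A802 (26 and 70, at least 4.14-fold) followed. All 5 are adenosines found once in mm9, and such intervals and floors cover counting error only.

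Of the 28 lower positions of mt-Rnr1 in DMS, 3 were adenosines, and the 3 largest falls were at other bases. The count was 48 with the median-ratio offset (6.32%, against 9.03% of all positions) and 13 without near-equal positions (1.91%, against 4.07%). Leaving out a library, which leaves 1 in a group, gave fewer lower positions. C485 had 6 and 31 stops in NT and 5 and 14 in DMS, out of a larger total, a log2 fold change of -3.80 (SE 0.47, adjusted p = 0.013). G62 went from 0.58% and 1.41% of the stops to 0.069% and 0.077% (-3.77, adjusted p = 0.032). U460 had 6 and 18 stops in NT and 4 and 12 in DMS (-3.51, adjusted p = 0.027). It reached the minimum number of stops only with the CMCT libraries (5 and 15 stops). The p of U460 therefore rests on counts near the floor, and the counts of C485 were low too. A position's share also falls when others rise, since shares of an RNA sum to its whole.

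mt-Rnr2 had more calls in DMS, 323 of 1299 positions higher (24.9%) and 21 lower (1.62%), against the same background of 13.2% and 8.36%. Of the 323, 194 were adenosines, or 37.0% of those tested, beside 25.0% of guanosines, 18.0% of cytosines and 11.5% of uridines. The 323 include positions without any NT stop, which passed the minimum through the treated libraries alone. How many these are is not given, and the shares by base and window include them. Windows of 100 nt from 1 to 300 held 42, 48 and 48 of the higher positions, the 29 tested positions after 1500 held 20, and the window from 1301 to 1400 held 0. Without near-equal positions 16.8% of mt-Rnr2 positions were higher, against 7.83% of all positions. The count depended on the scaling: with the median ratio of positions as offset in place of the total, 133 were higher (10.2%, against 13.4% of all positions) and 78 lower. It was 0 without NT replicate 1, NT replicate 2 or DMS replicate 2 (515, 508 and 431 with an unadjusted p under 0.05), 176 without DMS replicate 1, and 194 of 1154 without near-equal positions.

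None of the 5 largest fitted DMS rises of mt-Rnr2 had an NT stop, so they too entered through the treated libraries and are described by bounds. A137 had 112 and 123 stops in DMS, at least 17.7-fold more by share, A84 had 99 and 105 (at least 15.4-fold) and A16 had 74 and 92 (at least 12.5-fold). C1540 had 75 and 75, an equal pair, and A776 had 33 and 121 (at least 11.6-fold). The largest falls were in the stretch of strong NT stops. U623 went from 2.87% and 2.40% of the stops in NT to 0.212% and 0.139% in DMS, a log2 fold change of -3.91 (SE 0.31, adjusted p = 0.0082). U572 (-3.39, adjusted p = 0.033) and U568 (-3.27, adjusted p = 0.033) fell beside it.

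U623 behaved otherwise in CMCT. It had 17308 and 9756 stops there, 8.03% and 6.03% of the RNA's total and the strongest position of both CMCT libraries, with a log2 fold change of 1.42 (SE 0.28) and an adjusted p of 0.0525 that misses the threshold. Its 25 following bases occur at another place in mm9.

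**Figure D5:**
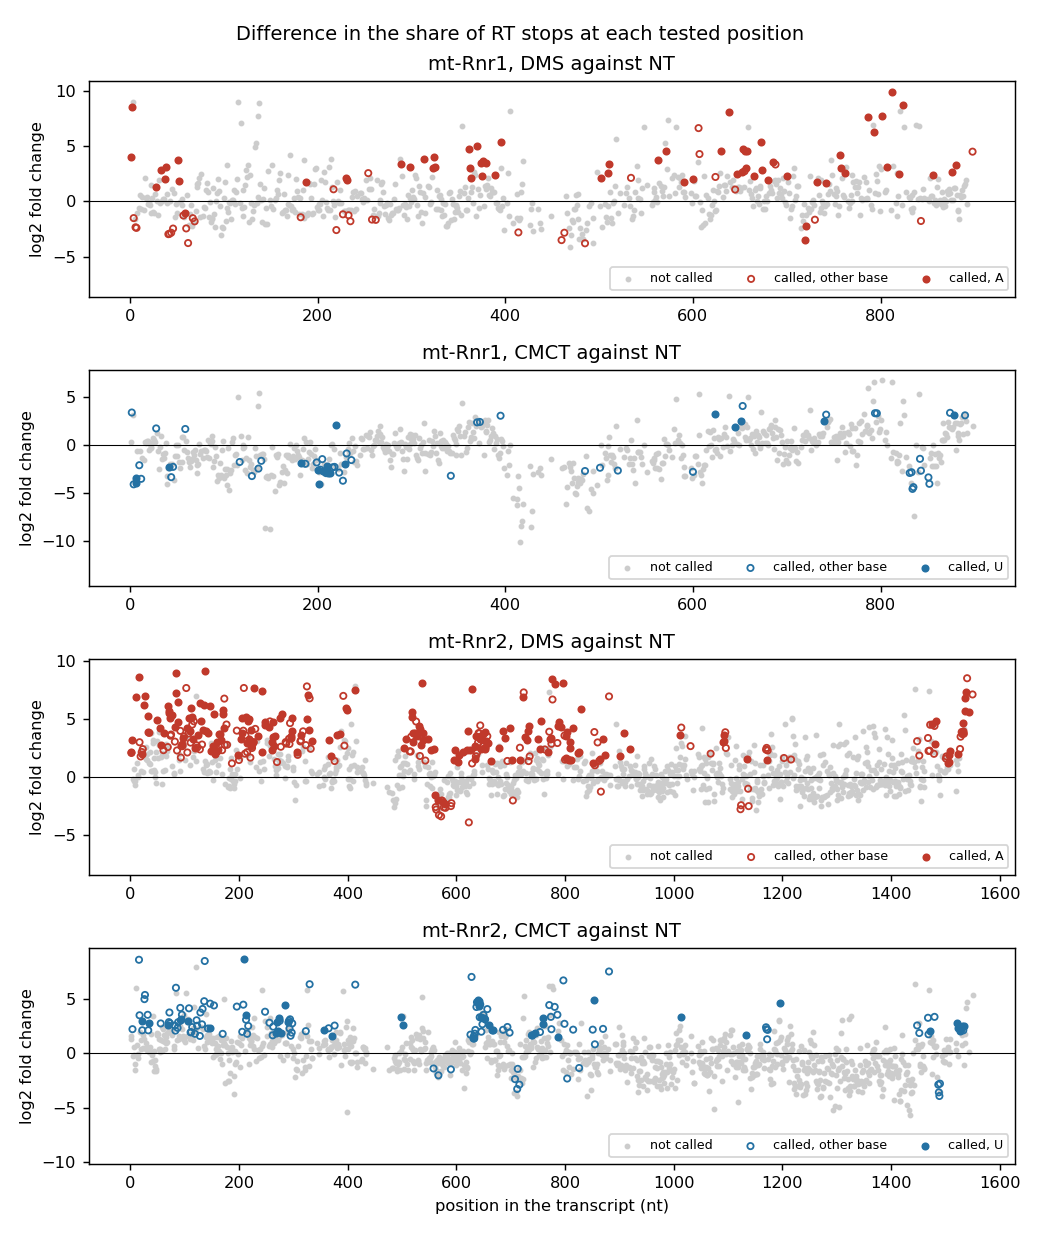
Log2 fold change of the share of RT stops at each tested position of mt-Rnr1 and mt-Rnr2, for DMS and for CMCT against NT; grey points were not called, filled points are called at A (DMS) or U (CMCT), and open points are called at other bases. Filled points make up 63 of the 73 higher calls of mt-Rnr1 in DMS, and the first 3 windows of 100 nt of mt-Rnr2 hold 42, 48 and 48 higher calls. Higher calls include positions with few or no NT stops.

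The CMCT comparison uses the same 2 NT libraries as the DMS one. In it few positions of mt-Rnr1 were higher, 18 of 760 (2.37%), and 44 (5.79%) were lower, against 4.74% and 4.3% of all positions. Of the 18, 6 were uridines, 9 adenosines, 2 guanosines and 1 a cytosine. The 18 include positions with few NT stops, such as the largest fitted rises named below, and how many these are is not given. With the median-ratio offset 61 were higher (8.03%) and 24 lower (3.16%), against 5.82% and 3.59% of all positions. The direction of the majority in mt-Rnr1 thus turned with the scaling. Without near-equal positions none of mt-Rnr1 were higher in edgeR and 5 were lower (0.734%), against 0.223% and 0.363% of all positions. Of its 681 positions in that setting, 208 had an unadjusted p under 0.05. Fits with 1 library left out are described with the processing below.

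A802, A812, A638 and A824, which had no NT stop, had larger fitted CMCT rises in mt-Rnr1 that were not called. Among called positions the largest was at A653, with 1 and 1 stops in NT, 95 and 71 in CMCT, and 179 and 234 in DMS. Its share in CMCT was 17.5 times that in NT (95% exact counting interval 4.77 to 146). A2 followed at 11.1 times (3.74 to 54.5). A874 went from 25 and 22 stops to 1320 and 1316 (log2 fold change 3.34, SE 0.61, adjusted p = 0.046), and A796 from 6 and 4 to 262 and 262 (3.29, SE 0.59). G794 went from 2 and 1 stops to 75 and 75, a share 10.6 times as high (3.54 to 51.7). G794 and A796 have equal CMCT replicates. A2, A653, G794 and A796 had few NT stops and passed the minimum of 50 through the treated libraries, so no p is given for them. None of these 5 called positions is a uridine, although the strongest position of both CMCT libraries was U220, with 5627 and 7014 stops (5.42% and 7.35%). In NT alone A874 too had fewer than 50. The largest falls were at A834 (12 and 12 stops in NT, 2 and 3 in CMCT, log2 fold change -4.59), C835 (24 and 35, then 7 and 7, -4.41) and U201 (6 and 5, then 1 and 2, -4.12), with adjusted p of 0.026, 0.014 and 0.043. A834 and U201 reached the minimum of 50 stops only with the DMS libraries (32 and 81, and 19 and 34 stops). Their p therefore rest on counts near the floor. Without near-equal positions the calls of A834 (-4.61, adjusted p = 0.0560), U201 (-4.13, adjusted p = 0.0677) and A874 (3.33, adjusted p = 0.0688) were lost at nearly unchanged log2 fold changes, and that of C835 remained (adjusted p = 0.0467).

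mt-Rnr2 had 146 of 1299 positions higher in CMCT (11.2%) and 13 lower (1.00%), with the background as for mt-Rnr1. Uridines were 43 of the 146, and 12.3% of uridines, 13.6% of guanosines, 11.6% of adenosines and 7.20% of cytosines were higher. The 146 and these shares include positions without any NT stop, and how many these are is not given. Without near-equal positions 0.607% of mt-Rnr2 positions were higher, against 0.223% of all positions. The count was 58 with the median-ratio offset (4.46%, against 5.82% of all positions) and 7 of 1154 without near-equal positions. It fell in every fit with 1 library left out, as did the count among all positions. Such fits leave 1 library in a group.

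Its 5 largest fitted CMCT rises again had no NT stop and are given as bounds. They were U209 with 47 and 47 stops in CMCT (at least 13.0-fold), A16 with 45 and 45 (at least 12.5-fold), A137 with 41 and 42 (at least 11.5-fold), G881 with 24 and 19 (at least 5.97-fold) and A628 with 15 and 15 (at least 4.16-fold). All but G881 have replicates within 1 stop of each other, and G881 and A628 have another copy in mm9. A1489 (35 and 36 stops in NT, 6 and 5 in CMCT) and its neighbour A1488 (21 and 26, then 4 and 5) fell, with log2 fold changes of -3.93 (SE 0.22, adjusted p = 0.00339) and -3.59. The replicates of A1489 differed by 1 stop in NT, and those of both positions by 1 in CMCT. Without positions of near-equal replicates A1489 had no value. A712 fell by 3.28 on the log2 scale (adjusted p = 0.034), a call lost with the median-ratio offset (-3.78, adjusted p = 0.0548) and without near-equal positions (-3.28, adjusted p = 0.0626).

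Reactivities, the log2 ratios scaled from 0 to 1 within each RNA, were above 0 at 494 of 930 positions of mt-Rnr1 for DMS and at 343 for CMCT. Of those, 172 and 147 were above 0.7, among them 145 adenosines for DMS and 45 uridines for CMCT. In mt-Rnr2 1005 of 1557 positions were above 0 for DMS and 731 for CMCT. Above 0.7 stood 317 and 278, with 210 adenosines and 86 uridines. Most positions above 0.7 for CMCT were thus not uridines in either RNA. Uridines made up 26.2% of the measured bases of mt-Rnr1 and 26.4% of those of mt-Rnr2, and adenosines 38.0% and 38.3%.

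The called adenosines were set beside a folding of the sequence alone, with RNAplfold in windows of 150 nt. Its mean probability of being unpaired was 0.78 at the 63 adenosines of mt-Rnr1 called higher in DMS and 0.70 at the other 244 tested. In mt-Rnr2 it was 0.72 at 194 and 0.66 at 330. For uridines in CMCT it was 0.44 at 6 called and 0.50 at 202 others in mt-Rnr1, and 0.53 at 43 and 0.47 at 306 in mt-Rnr2. The called adenosines of both RNAs, and the called uridines of mt-Rnr2, include positions without any NT stop. Such positions passed the minimum number of stops through the treated libraries alone, and no mean is given without them. These means are descriptions over neighbouring positions of 1 molecule.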

How the data were processed

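The authors deposited raw counts of RT stops per transcript position, 1 table per library, already placed on the modified base. Per the labels, FastQC 0.10.1, Bowtie 1.0.0 and bedtools 2.17.0 were named with mm9 for CIRS-seq, and TopHat2 2.0.6 for RNA-seq, deposited as 50-base alignments. The study mapped CIRS-seq reads to mm9 with the base variants of E14 cells. How reads with several places were treated is not given in the sources used here. The authors' tables of pooled replicates were not used.

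The members and lists were chosen with earlier results of these data known. Named positions were the 5 strongest NT stops by mean share and, per reagent, the 5 largest rises and 3 largest falls past the threshold for which both treated shares lay on one side of both NT shares. The 3 genes with the highest correlation to each RNA were also named. G632, U220, U1232 and the genes named from the lists were chosen after their values were seen.

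Counts per gene took each genomic position once. edgeR 4.0.16 in R 4.3.3 (TMM, filterByExpr, quasi-likelihood, Benjamini-Hochberg at 0.05) was fitted over 6 libraries, with DESeq2 1.42.0 as an alternative. Positions with at least 50 stops were fitted the same way, with the transcript's total as offset, in 1 transcript per gene. SEs are the fold change over the root of F. Both fits were tested on simulated data. Reactivities were log2 ratios winsorised at the 90th percentile. RNAplfold 2.7.2 gave unpaired probabilities (span 100). RNA-seq alignments were counted by midpoint without strand. Python 3.11.15, numpy 2.4.6, pandas 2.3.3, scipy 1.17.1 and matplotlib 3.10.9 were used. With 2 replicates per treatment, p-values measure only the spread between these libraries.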

Additional observations from a re-analysis of the deposited data

How the results depend on the processing

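No log2 fold change of either RNA changed sign under the alternatives tried. For mt-Rnr1 the DMS value lay between 1.75 and 3.44 when 1 library was left out and the CMCT value between 1.08 and 2.72. For mt-Rnr2 the DMS value lay between 1.33 and 2.01. The CMCT call of mt-Rnr1 was lost in edgeR with DESeq2's size factors (1.53) and with scaling to the mitochondrial genes (1.48). It was also lost without near-equal positions (1.60), an alternative chosen after seeing the data. DESeq2 itself kept the call (1.53, adjusted p = 0.0433). The DMS call of mt-Rnr2 was lost with scaling to the mitochondrial genes (0.96), and its CMCT value passed with library totals (1.14). The cause was not tested.

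Counts of called positions moved more. Without near-equal positions 48 positions of mt-Rnr1 were higher (7.05%) and 13 lower (1.91%) in DMS, and 0 and 5 (0.734%) in CMCT. In mt-Rnr2 194 (16.8%) were higher and 17 (1.47%) lower in DMS, and 7 (0.607%) and 1 (0.0867%) in CMCT. The shares of all positions in that setting were 7.83% and 4.07% in DMS, and 0.223% and 0.363% in CMCT. Leaving out 1 library gave 0 to 46 higher and 0 to 6 lower positions of mt-Rnr1 in DMS, and 0 to 1 and 0 to 2 in CMCT. For mt-Rnr2 it gave 0 to 176 and 0 to 3 in DMS, and 0 to 30 and 0 to 3 in CMCT. Over all 698485 positions edgeR then called 0 in DMS without NT replicate 1, NT replicate 2 or DMS replicate 2. In CMCT the calls over all positions also fell whenever 1 library was left out. The median-ratio offset gave 48 lower positions of mt-Rnr1 in DMS, and 61 higher and 24 lower in CMCT. For mt-Rnr2 it gave 133 higher and 78 lower in DMS, and 58 and 24 in CMCT. With at least 200 stops 15 positions of mt-Rnr1 were lower in DMS.

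With 2 pairs per comparison, whether replicate numbers pair the libraries could not be settled. Over 13197 genes the deviations of the replicates correlated at 0.556 between NT and DMS, at 0.020 between NT and CMCT and at -0.0993 between DMS and CMCT. Along the 2 RNAs, profiles of different treatments correlated at a median of 0.73 (mt-Rnr1) and 0.74 (mt-Rnr2) with the same number, and at 0.61 and 0.59 with another. With the replicate number as a block, 52 positions of mt-Rnr1 (6.84%) and 42 of mt-Rnr2 (3.23%) were lower in DMS, against 8.98% of all positions. In CMCT 75 of mt-Rnr2 (5.77%) were higher, against 2.78% of all positions. Among the named positions for which a p is given, the calls lost with the block were those of A874 (3.47, adjusted p = 0.0503), A834 (-4.56, 0.0544) and U201 (-4.12, 0.0663) of mt-Rnr1 in CMCT and U572 of mt-Rnr2 in DMS (-3.37, 0.0569), with log2 fold changes about as large as without it.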
